A study of Arabidopsis thaliana with 45 samples.

Results

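Gene expression was compared between non-dormant and dormant seeds of Arabidopsis thaliana after 6 h in water, in total RNA. The comparison holds 6 of the 45 arrays of the study, taken by their titles, 3 for non-dormant seeds and 3 for dormant ones. Both groups are seeds of the line NILDOG1-Cvi in a Landsberg erecta background, a near-isogenic line named for the DOG1 region of the accession Cvi, so the groups share their genotype and differ in dormancy level. Each replicate was a bulk of 8 plants grown in a randomized block design, per the labels. The way dormancy was lost in the non-dormant seeds is not stated in these sources, and the labels' treatment protocol speaks of dry seeds where titles and characteristics give imbibition times, so the imbibition time rests on the titles. The other arrays of the study hold polysomal RNA, seeds imbibed with the transcription inhibitor cordycepin, and a later time of 24 h. Of these, 18 arrays in comparisons of the same form, none shared with the 6, are set beside the results. The titles do not say whether those arrays share seed bulks with the 6, so they may not be independent material.

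Seed dormancy is a block to germination that persists in favourable conditions and is lost with storage or chilling. Abscisic acid (ABA) sets and maintains it, gibberellins oppose it, and the protein DOG1 (DELAY OF GERMINATION 1) acts beside ABA through a shared group of protein phosphatases. In the first hours of imbibition the embryo still holds the stored transcripts of seed maturation, such as those of storage and late embryogenesis abundant (LEA) proteins, and begins to transcribe genes for growth. Radicle emergence needs cell walls that loosen, which expansins and wall-modifying enzymes bring about.

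Expression was measured on the log2 scale by 27827 probe sets with locus codes as names. The medians of the 6 arrays lay between 4.08 and 4.27. Their lower quartiles were 2.70, 2.62 and 2.72 on non-dormant and 2.73, 2.74 and 2.87 on dormant arrays, so each dormant value lay above each non-dormant one. A group mean under 2.87 is called open to background here. A difference from it may be understated, or may follow the background of the arrays, which was not tested. Correlations between arrays of non-dormant seeds were 0.979 to 0.982. Those between arrays of dormant seeds were 0.958 to 0.973, and replicate 3 of the dormant seeds stood apart (0.958 and 0.961 with the other arrays of its group). On the first principal component of the 6 arrays (33.2% of the variance) the non-dormant arrays stood at 31.8, 37.9 and 35.2 and the dormant arrays at -28.1, -23.2 and -53.7. The second component (26.2%) set replicate 3 of the dormant seeds (53.4) against the other two dormant arrays (-45.7 and -32.1). Of 7 seed identity genes (cruciferin, albumin, oleosin and others) 5 lay above the upper decile of every one of the 6 arrays, which fits the labelled tissue, and none of the 7 was called different. Differences are non-dormant minus dormant on the log2 scale, each with the standard error of limma's fit over all arrays. Calls rest on an adjusted p (Benjamini-Hochberg) under 0.05.

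After 6 h in water 1651 of the 27827 probe sets (5.93%) were called, 865 higher (3.11%) and 786 lower (2.82%) in non-dormant seeds. Higher calls outnumbered lower ones in this fit, but not with quantile normalization (732 higher and 813 lower), cyclic loess (688 and 842), the 6 compared arrays alone (120 and 193) or without replicate 3 of the dormant seeds (637 and 712). A change of at least 2-fold was reached by 300 of the higher (1.08%) and 329 of the lower ones (1.18%). The arrays of the groups did not overlap for 839 of the 865 (3.02% of all probe sets) and 759 of the 786 (2.73%), while over all probe sets 22.7% did not overlap. Differences of all probe sets ran from -3.16 to 4.56 with a median of -0.02 and quartiles of -0.28 and 0.24. Among the calls, the lower of the 2 group means was open to background for 29 of the 865 higher probe sets (3.35%) and 183 of the 786 lower ones (23.3%). Both group means were open to background for 86 of the 786 lower probe sets and for 0 of the 865 higher ones. Calls were spread over the nuclear chromosomes, with 3.0 to 3.19% of probe sets higher and 2.73 to 3.05% lower on chromosomes 1 to 5, and none of the 15 plastid-encoded or 92 mitochondrion-encoded probe sets was called. In whole seeds a difference can come from more cells of a type or from more RNA per cell, and these cannot be told apart. Without replicate 3 of the dormant seeds 1349 probe sets were called, 1052 of them among the 1651. With non-dormant replicate 2 or 3 left out the counts were 1044 and 1091, and with the 6 compared arrays fitted alone 313 passed, 310 of them among the 1651.

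**Figure D1:**
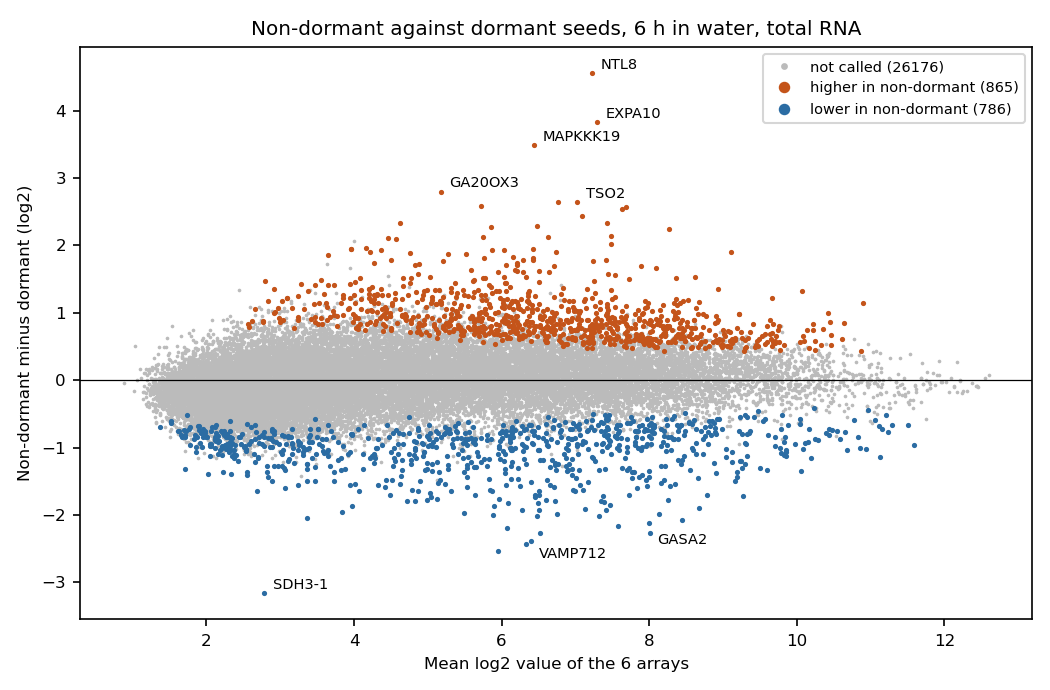
Difference between non-dormant and dormant seeds (y axis, log2) against the mean log2 value of the 6 arrays (x axis) for each of the 27827 probe sets, with the 865 called higher in orange and the 786 called lower in blue. NTL8 stands highest at 4.56 and SDH3-1 lowest at -3.16, and many of the lower calls lie at dim levels at the left.

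The largest rise in non-dormant seeds was in NTL8 (AT2G27300), a NAC transcription factor that is anchored in a membrane until it is released. Its arrays read 9.46, 9.59 and 9.48 in non-dormant seeds, against 4.39, 5.46 and 5.01 in dormant seeds, a difference of 4.56 ± 0.25 (SE, adjusted p = 2.82e-15). Non-dormant arrays were nearly identical for this gene, and the lowest of them lay about 4 log2 units above the highest dormant one. EXPA10 (AT1G26770), an expansin that loosens cell walls, read 9.05, 9.21 and 9.35 in non-dormant seeds, against 4.73, 6.25 and 5.16 in dormant seeds (14.2-fold). The protein kinase gene MAPKKK19 (AT5G67080) read 8.12, 8.10 and 8.34 in non-dormant seeds, against 4.67, 4.74 and 4.70 in dormant seeds (11.2-fold). Both groups were tight for MAPKKK19, while the dormant arrays of EXPA10 spread over more than a log2 unit. Its close relative MAPKKK20 (AT3G50310) rose by 2.65 ± 0.20, and of the 9 kinases MAPKKK13 to MAPKKK21 these were the 2 that were called, beside a list median of -0.01 that turned positive with other normalizations (0.12 and 0.16).

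TSO2 (AT3G27060), the small subunit of ribonucleotide reductase, which makes the building blocks of DNA, read 8.62, 8.39 and 8.04 in non-dormant seeds, against 5.64, 5.41 and 6.06 in dormant seeds. Its groups did not overlap and differed by 2.65 ± 0.19 (SE, adjusted p = 6.6e-12). Transcription factor genes among the 15 largest rises besides NTL8 were ESE3 (2.58 ± 0.23), of the ethylene response factor family, CRF3 (2.28 ± 0.30), a cytokinin response factor, and LBD37 (2.12 ± 0.25), a repressor tied to nitrogen supply. The list also held the calcium-binding protein gene CP1 (AT5G49480, 2.57 ± 0.23), the cysteine proteinase gene that carries the same symbol CP1 (AT4G36880, 2.33 ± 0.24) and SIP1 (AT1G55740, 2.54 ± 0.24), named for seed imbibition. The ABA receptor gene PYL4 (2.43 ± 0.18), the transporter gene ABCB15 (2.14 ± 0.22) and SRO5 (2.13 ± 0.32), a gene of oxidative stress responses, completed it with GA20OX3, described with the gibberellin genes. SRO5 read 7.62, 7.72 and 7.74 in non-dormant seeds, against 5.84, 5.89 and 4.97 in dormant seeds, where replicate 3 lay below the other two. None of the 15 had a group mean open to background, and each kept its call and direction under all 15 alternatives tried.

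**Figure D2:**
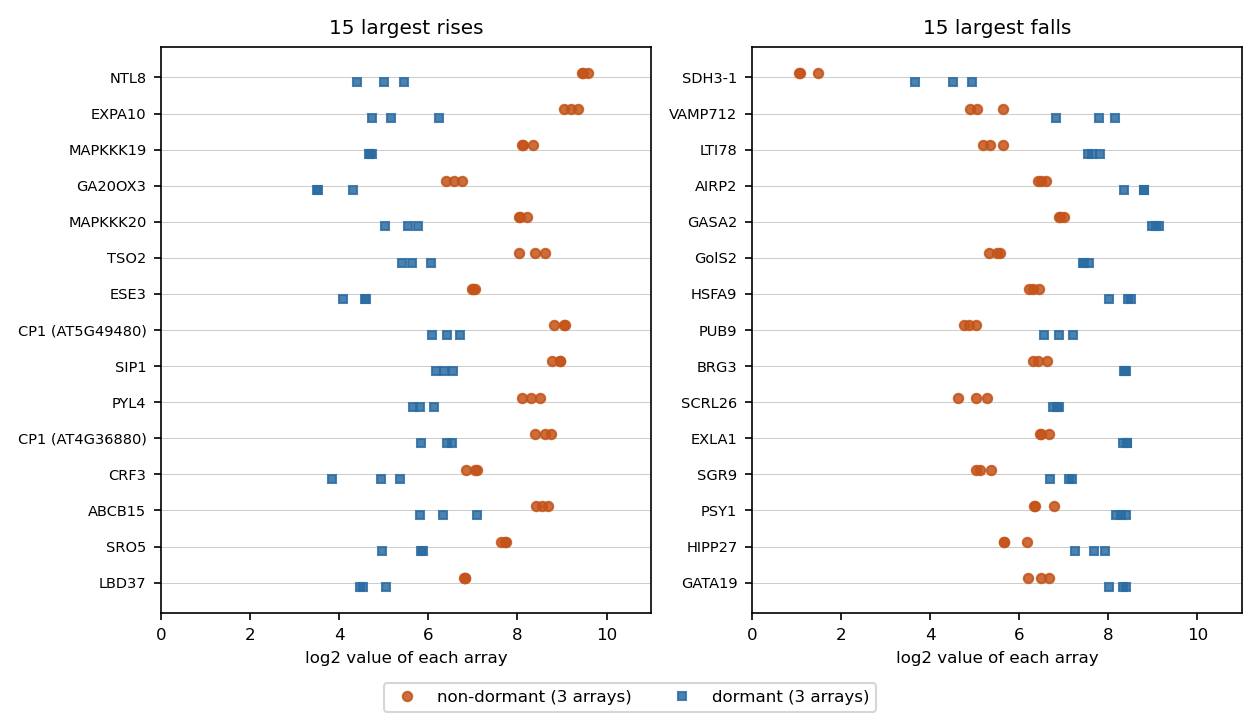
The log2 value of each array (x axis) for the 15 genes with a symbol that rose most and the 15 that fell most, with non-dormant arrays as orange circles and dormant arrays as blue squares. The groups of 3 do not overlap, which the rule for naming these genes required, and the gap is widest for NTL8 (4.56) among the rises and SDH3-1 (-3.16) among the falls.

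The largest fall by value was in SDH3-1 (AT5G09600), a subunit of mitochondrial succinate dehydrogenase, but it rests on dim levels. Its arrays read 1.05, 1.07 and 1.49 in non-dormant seeds, against 3.65, 4.94 and 4.51 in dormant seeds (-3.16 ± 0.51 SE, adjusted p = 5.63e-05). On 42 arrays outside the dormant group this probe set lay between 0.94 and 4.24 with a median of 1.65, and 2 of the 3 dormant arrays lay above that range. Among falls between well-measured levels, VAMP712 (AT2G25340), a vesicle fusion protein, read 5.64, 4.90 and 5.06 in non-dormant seeds, against 7.79, 8.16 and 6.82 in dormant seeds. Its difference of -2.39 ± 0.25 is 5.24-fold lower in non-dormant seeds. LTI78 (AT5G52310, also called RD29A), a marker gene of cold, drought and ABA responses, read 5.35, 5.19 and 5.64 in non-dormant seeds, against 7.63, 7.54 and 7.81 in dormant seeds (-2.27 ± 0.23).

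AIRP2 (AT5G01520), a RING-type ubiquitin ligase of the ABA response, read 6.41, 6.61 and 6.48 in non-dormant seeds, against 8.80, 8.81 and 8.36 in dormant seeds (-2.16 ± 0.17). The U-box ligase gene PUB9 fell by 2.0 on the log2 scale, and the RING-type genes BRG3 and SGR9 by 1.92 and 1.83. HSFA9 (AT5G54070), the heat shock factor of maturing seeds, read 6.30, 6.44 and 6.21 in non-dormant seeds, against 8.45, 8.50 and 8.02 in dormant seeds (-2.01 ± 0.27). GASA2 (AT4G09610), of a family of small cysteine-rich proteins regulated by gibberellin, read 7.01, 6.90 and 6.91 in non-dormant seeds, against 9.06, 9.13 and 8.98 in dormant seeds (-2.12 ± 0.25). The arrays of each group were close together for GASA2, and the groups did not overlap. GolS2 (-2.01 ± 0.18) is described with the sugar genes. The other falls were in SCRL26 (-1.86), the expansin-like gene EXLA1 (-1.85), the sulfated peptide gene PSY1 (-1.81), HIPP27 (-1.80), of a metal-binding family, and the GATA factor gene GATA19 (-1.80). Each kept its call and direction under the 15 alternatives, except that SDH3-1 was dropped by the filter on dim probe sets and so was tested in 14.

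The largest changes among probe sets without a symbol were of the same order. AT2G16660 (2.33 ± 0.34), AT1G56300 (2.29 ± 0.27), AT4G36010 (2.24 ± 0.24) and AT1G03746 (2.11 ± 0.47) were higher in non-dormant seeds. AT2G25625 (-2.53 ± 0.24), AT5G66430 (-2.43 ± 0.33), AT2G19320 (-2.27 ± 0.35) and AT5G04010 (-2.19 ± 0.24) were lower. AT1G03746 read 5.89, 5.52 and 5.14 in non-dormant seeds, against 3.72, 4.13 and 2.37 in dormant seeds. Without replicate 3 of the dormant seeds its difference was 1.59 (adjusted p = 0.0523), and fitted on the 6 arrays alone it did not pass (adjusted p = 0.0756).

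Counts of calls in the gene lists that follow stand beside 3.11% of all probe sets called higher and 2.82% called lower. Of 10 gibberellin synthesis genes 2 were called higher and none lower in non-dormant seeds, a 20-oxidase and a 3-oxidase gene. Gibberellin 20-oxidases and then 3-oxidases make the active hormone. GA20OX3 (AT5G07200) read 6.58, 6.76 and 6.39 in non-dormant seeds, against 4.32, 3.52 and 3.49 in dormant seeds (2.80 ± 0.25, adjusted p = 4.58e-10, 6.95-fold). GA3OX1 (AT1G15550) read 6.35, 6.49 and 5.86 in non-dormant seeds, against 4.97, 5.19 and 4.85 in dormant seeds (1.23 ± 0.25, adjusted p = 0.00124). The list's median was 0.48, beside -0.02 over all probe sets. GA3OX2 stood at 6.78, 6.71 and 5.45 in non-dormant seeds, against 5.20, 6.33 and 3.78 in dormant seeds, groups that overlap (1.21 ± 0.47, adjusted p = 0.134). The early genes GA1, GA2 and GA3 differed by 0.12, -0.07 and -0.05, and none was called.

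Of 7 gibberellin 2-oxidases, which inactivate the hormone, GA2OX6 was called lower (-0.85 ± 0.22, adjusted p = 0.0168), with a non-dormant mean of 2.29 that is open to background. Among 9 receptor and repressor genes 1 rose and 1 fell. RGL2 (AT3G03450), the DELLA repressor that holds back germination, read 8.20, 8.38 and 8.33 in non-dormant seeds, against 6.06, 6.67 and 6.85 in dormant seeds (1.78 ± 0.22, 3.43-fold). Its groups did not overlap. The receptor gene GID1C was lower (-0.65 ± 0.18, adjusted p = 0.0257), while GID1A (-0.26) and GID1B (0.35) were not called. GA2OX6 did not pass without replicate 2 of either group (-0.75 to -0.71, adjusted p = 0.0909 to 0.0952) or with quantile normalization (-0.69, adjusted p = 0.0595). GID1C did not pass without any of 4 arrays, replicates 2 and 3 of the non-dormant and 1 and 2 of the dormant seeds (-0.67 to -0.58, adjusted p = 0.0692 to 0.118). With the 6 compared arrays alone GA3OX1 (adjusted p = 0.0519), GA2OX6 (0.116) and GID1C (0.165) did not pass.

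Of 10 ABA synthesis genes 2 were called lower and none higher, and of 4 ABA breakdown genes 1 was called higher and none lower. Over all probe sets 3.11% were called higher and 2.82% lower. NCED5 (AT1G30100), a 9-cis-epoxycarotenoid dioxygenase that cuts the carotenoid precursor, read 7.0, 7.02 and 7.10 in non-dormant seeds, against 8.24, 8.32 and 8.55 in dormant seeds (-1.33 ± 0.22, adjusted p = 6.7e-05). ABA1, the zeaxanthin epoxidase upstream of it, was lower too (-0.71 ± 0.15, adjusted p = 0.00282). They were the 2 called of 10 synthesis genes (list median -0.13), and NCED3, the family member known for drought responses, stood at 0.89 ± 0.30 (adjusted p = 0.0737). CYP707A2 (AT2G29090), the ABA 8'-hydroxylase that lowers ABA during imbibition, read 8.65, 8.67 and 8.58 in non-dormant seeds, against 7.67, 7.69 and 8.14 in dormant seeds (0.80 ± 0.15, adjusted p = 0.000419). It was the 1 called of 4 hydroxylase genes (list median 0.33). In polysomal RNA at 6 h CYP707A2 was not called (0.47, adjusted p = 0.0622), and with cordycepin it was called higher (1.02, adjusted p = 1.67e-05). The list's medians there were -0.36 and -0.37. ABA1 (adjusted p = 0.127) and CYP707A2 (0.115) did not pass with the 6 compared arrays alone.

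Genes for ABA perception changed in both directions. PYL4 (AT2G38310) read 8.50, 8.31 and 8.10 in non-dormant seeds, against 5.66, 6.13 and 5.82 in dormant seeds (2.43 ± 0.18, 5.40-fold). PYL8 (RCAR3 in the reference table) read 6.61, 6.74 and 7.14 in non-dormant seeds, against 5.18, 4.58 and 4.94 in dormant seeds (1.93 ± 0.34, adjusted p = 0.000184). PYL6 rose by 1.48 ± 0.30 against a dormant mean of 2.81 that is open to background, and PYL7 fell (-1.0 ± 0.24). So 3 of 9 receptor genes were called higher and 1 lower, beside 3.11% and 2.82% of all probe sets, and the list's median was 0.68. PYL1 (1.22 ± 0.39, adjusted p = 0.0582) and PYR1 (0.68 ± 0.24, adjusted p = 0.0889) were not called. PYL7 did not pass without replicate 1 of the non-dormant or of the dormant seeds (-0.75 to -0.74, adjusted p = 0.0742 to 0.0868). With the 6 compared arrays alone PYL6 (adjusted p = 0.0809) and PYL7 (0.204) did not pass.

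The clade A phosphatases (PP2Cs), which the receptors inhibit and which switch ABA signalling off, leaned the other way, with a median of -0.46. Of the 9 genes 1 was called higher and 2 lower, beside 3.11% and 2.82% of all probe sets. ABI1 (AT4G26080) read 8.29, 8.03 and 8.0 in non-dormant seeds, against 6.73, 7.09 and 6.86 in dormant seeds (1.21 ± 0.15, adjusted p = 1.2e-06). HAI2 (-0.88 ± 0.14, adjusted p = 5.27e-05) and PP2CA (-0.60 ± 0.16, adjusted p = 0.0162) fell, and AHG1, the phosphatase known to bind DOG1, stood at -0.25 ± 0.13 (adjusted p = 0.319). Among 10 kinases and transcription factors that promote ABA responses, ABI4 (AT2G40220) read 9.07, 8.99 and 8.71 in non-dormant seeds, against 7.25, 7.39 and 7.12 in dormant seeds (1.67 ± 0.13, adjusted p = 3.54e-11). The kinase genes OST1 (1.61 ± 0.39) and SNRK2.3 (0.66 ± 0.17) were also higher, and the factor gene ABF4 was lower (-1.47 ± 0.42, adjusted p = 0.0293). ABI3 (0.07 ± 0.22) and ABI5 (-0.63 ± 0.27, adjusted p = 0.195), the seed factors of this pathway, were not called.

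Of these signalling genes ABI1, HAI2 and ABI4 kept their calls without each array. OST1 did not pass without replicate 2 of the non-dormant or replicate 1 of the dormant seeds (1.21 to 1.42, adjusted p = 0.0659 to 0.09), and SNRK2.3 without replicate 3 of the dormant seeds (0.49, adjusted p = 0.105). PP2CA lost its call without replicate 1 or 2 of the non-dormant or 1 of the dormant seeds (-0.60 to -0.49, adjusted p = 0.0529 to 0.0981). ABF4 lost it without any array except replicate 3 of the dormant seeds (-1.55 to -1.18, adjusted p = 0.0621 to 0.143). With the 6 compared arrays alone HAI2, PP2CA, OST1, ABF4 and SNRK2.3 did not pass (adjusted p = 0.0686, 0.187, 0.0928, 0.125 and 0.195).

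**Figure D3:**
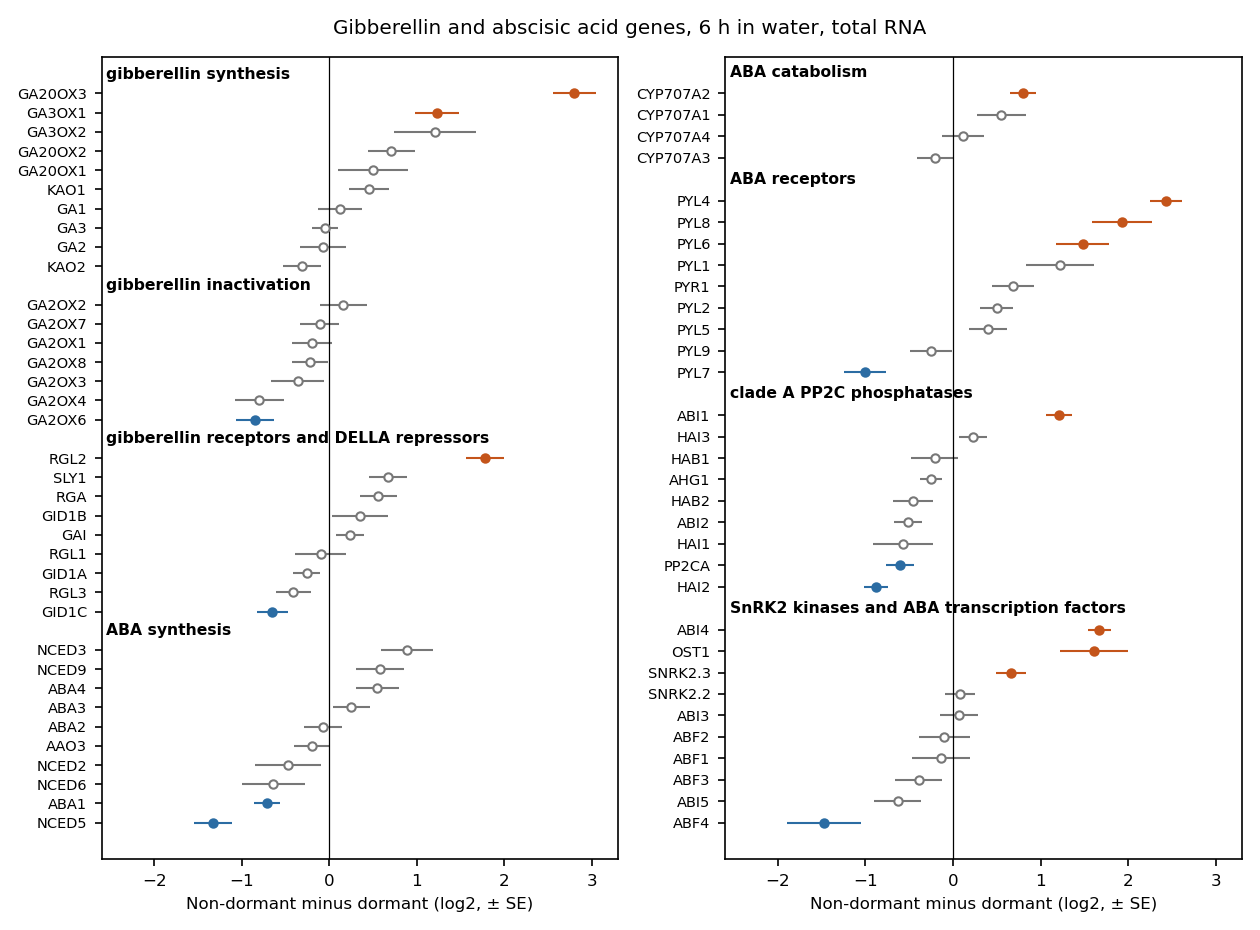
Difference between non-dormant and dormant seeds (x axis, log2, ± SE of the fit) for the genes of gibberellin and ABA synthesis, breakdown, perception and signalling, with filled orange points called higher, filled blue points called lower and open grey points not called. GA20OX3 (2.80) and PYL4 (2.43) stand farthest to the right, and ABF4 (-1.47) and NCED5 (-1.33) farthest to the left.

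Of 16 listed cold and dehydration response genes 5 were open to background in both groups. Lower calls were made for 3 of the 16, beside 2.82% of all probe sets, and none was called higher (list median -0.34). Besides LTI78 these were LTI65 (AT5G52300, also called RD29B), at 10.61, 10.66 and 10.39 in non-dormant seeds, against 11.59, 11.77 and 11.74 in dormant seeds (-1.14 ± 0.20), and the NAC factor gene RD26 (-1.02 ± 0.20, adjusted p = 0.000823). RAB18, a dehydrin, averaged 12.40 ± 0.08 in non-dormant and 12.50 ± 0.14 in dormant seeds (SD, n = 3 each) and was not called (-0.10, adjusted p = 0.775). None of the 6 CBF and DREB2 factor genes, the cold and drought regulators of such targets, was called, and 3 of them were open to background in both groups. Of 7 genes for raffinose family sugars, GolS2 (AT1G56600), a galactinol synthase, read 5.57, 5.33 and 5.49 in non-dormant seeds, against 7.56, 7.42 and 7.45 in dormant seeds (-2.01 ± 0.18, adjusted p = 7.73e-10). Its relative GolS1 averaged 11.01 in both groups (0.00 ± 0.19, adjusted p = 0.997). RD26 did not pass with the 6 compared arrays alone (adjusted p = 0.0681).

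LEA genes, which encode desiccation protectants, had a negative difference for each of 14 members, with a median of -0.34. Of these 5 were called lower, beside 2.82% of all probe sets. They were ATECP31 (-0.67 ± 0.20), LEA4-5 (-0.67 ± 0.12), LEA14 (-0.60 ± 0.17), LEA18 (-0.59 ± 0.14) and AT3G17520 (-0.44, adjusted p = 0.0289). LEA4-5 (AT5G06760) read 11.16, 11.22 and 11.13 in non-dormant seeds, against 11.78, 11.85 and 11.88 in dormant seeds. All 14 stayed negative with quantile normalization (median -0.14, 4 called) and cyclic loess (median -0.39, 6 called), but the count fell to 1 without replicate 3, 2 without replicate 2 and 3 without replicate 1 of the non-dormant seeds, and to 3 without replicate 1 or 2 of the dormant seeds. ATECP31 did not pass without any array except replicate 3 of the dormant seeds (-0.69 to -0.62, adjusted p = 0.0924 to 0.122), with array weights (adjusted p = 0.0539) or with quantile normalization (-0.47, adjusted p = 0.176). LEA14 did not pass without replicates 2 or 3 of either group (-0.60 to -0.54, adjusted p = 0.0725 to 0.124), nor LEA18 without replicate 3 of the non-dormant seeds (-0.54, adjusted p = 0.0525). With the 6 arrays alone none of the 14 was called, and LEA4-5 (adjusted p = 0.118), ATECP31 (0.138), LEA14 and LEA18 (0.179 each) did not pass there. None of 14 seed storage and oil body genes was called, with a median of -0.15 and differences from -0.37 to 0.04.

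Of 16 heat shock genes 2 were called higher and 1, HSFA9, lower, beside 3.11% and 2.82% of all probe sets. A positive difference was found for 12 of the 16, with a list median of 0.36. The mitochondrial small heat shock protein gene AT5G51440 (HSP23.5) read 9.43, 9.32 and 9.40 in non-dormant seeds, against 7.74, 8.0 and 7.83 in dormant seeds (1.53 ± 0.18, adjusted p = 2.24e-07). HSP17.6II stood at 9.05, 9.0 and 9.32 in non-dormant seeds, against 7.64, 7.56 and 7.64 in dormant seeds (1.51 ± 0.41, adjusted p = 0.019). HSP101, a chaperone that dissolves protein aggregates, differed by 0.18 ± 0.15 (adjusted p = 0.554). HSP17.6II did not pass without replicate 3 of the non-dormant or replicate 2 of the dormant seeds (1.41 to 1.48, adjusted p = 0.0522 to 0.0824).

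Of 11 expansin genes 4 were called higher and none lower, beside 3.11% and 2.82% of all probe sets. The list's median was 0.49. The expansin-like gene EXLA1, which is not in that list, was called lower (-1.85). After EXPA10 came EXPA8 (AT2G40610), at 7.23, 6.86 and 6.91 in non-dormant seeds, against 5.40, 5.11 and 5.59 in dormant seeds (1.63 ± 0.24, adjusted p = 2.01e-05). EXPA3 (EXP3 in the reference table, 1.34 ± 0.31) and EXPA1 (1.32 ± 0.25) followed, and EXPA2 averaged 2.80 ± 0.28 on non-dormant and 2.37 ± 0.54 on dormant arrays (SD, n = 3 each), both open to background. Of 16 xyloglucan and mannan enzyme genes MAN5, an endo-mannanase, was higher (0.70 ± 0.20), and XTH18 (-1.10 ± 0.32) and XTH28 (-0.94 ± 0.28) were lower with arrays that overlap between the groups. The calls of this second list did not hold without single arrays. MAN5 did not pass without any array except replicate 2 of the dormant seeds (0.57 to 0.73, adjusted p = 0.0608 to 0.147), and XTH18 without 4 of the 6, all but replicate 3 of each group (-1.07 to -0.83, adjusted p = 0.0816 to 0.196). XTH28 did not pass without replicate 1 or 3 of either group (-0.93 to -0.69, adjusted p = 0.105 to 0.229) or with array weights (-0.80, adjusted p = 0.0951), nor MAN5 with array weights (0.62, adjusted p = 0.0661). With the 6 compared arrays alone XTH18, XTH28 and MAN5 did not pass (adjusted p = 0.209, 0.255 and 0.157).

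Of 20 genes known to regulate dormancy and germination 3 were called higher and 1 lower, beside 3.11% and 2.82% of all probe sets. The list's median was -0.04. DOG1 (AT5G45830) read 5.07, 4.90 and 5.88 in non-dormant seeds, against 5.95, 5.31 and 5.58 in dormant seeds, and its groups overlap (-0.33 ± 0.27, adjusted p = 0.549). The DOG1-like gene AT4G18680 (DOGL2) was lower, at 9.19, 9.28 and 9.18 in non-dormant seeds, against 10.29, 10.23 and 10.07 in dormant seeds (-0.98 ± 0.15, adjusted p = 2.9e-05). PIF1 (PIL5 in the reference table, AT2G20180), a light-sensitive factor that represses germination, read 9.03, 9.06 and 9.03 in non-dormant seeds, against 8.12, 7.72 and 7.78 in dormant seeds (1.17 ± 0.15, adjusted p = 7.85e-07). SPT, a related repressor of germination, was higher too (1.32 ± 0.30, adjusted p = 0.00399), as was TFIIS (RDO2), a transcription elongation factor that promotes dormancy (0.66 ± 0.14). MFT (E12A11 in the reference table), a seed regulator between ABA and gibberellin, stood at -0.51 ± 0.20 (adjusted p = 0.126). SPT did not pass without replicate 2 of the dormant seeds (1.00, adjusted p = 0.0534), and with the 6 arrays alone SPT (adjusted p = 0.187) and TFIIS (0.176) did not pass.

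The pathway in the study's title is that of tryptophan and auxin. Its calls at 6 h stand beside 3.11% of all probe sets called higher and 2.82% lower. Of 29 tryptophan and auxin synthesis genes 1 was called, TSA1 (AT3G54640), the alpha subunit of tryptophan synthase, at 6.06, 5.86 and 5.32 in non-dormant seeds, against 6.61, 6.47 and 6.42 in dormant seeds (-0.75 ± 0.19, adjusted p = 0.0101). The list's median was -0.01, and without replicate 3 of the non-dormant seeds TSA1 did not pass (-0.54, adjusted p = 0.13). CYP79B2 (-0.53 ± 0.24, adjusted p = 0.227) and CYP79B3 (0.07 ± 0.31), which open the route to indole acetaldoxime, were not called, nor was any of 7 indole glucosinolate genes. With the 6 compared arrays alone TSA1 did not pass (adjusted p = 0.191).

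Nitrate assimilation and the clock held a few calls each. Nitrite reductase (NIR1, AT2G15620) read 10.69, 10.52 and 10.70 in non-dormant seeds, against 9.80, 9.80 and 9.78 in dormant seeds (0.84 ± 0.13, adjusted p = 1.88e-05), and nitrate reductase NIA1 was higher by 0.44 ± 0.12 (adjusted p = 0.0179). They were the called genes among 12 of nitrate and antioxidant metabolism. Of 12 clock genes CCA1, a morning regulator, was higher (1.16 ± 0.36), and its relatives RVE2 (-0.83 ± 0.17) and RVE8 (-0.77 ± 0.20) were lower. Of 13 rapid stress response genes, the repressor genes STZ (-0.86 ± 0.23) and ERF4 (-0.67 ± 0.19) were lower. Of 8 membrane-bound NAC genes NAC053 (0.64 ± 0.20, adjusted p = 0.0464) was called besides NTL8.

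Several of these calls depend on single arrays. NIA1 did not pass without replicate 1 or 2 of the non-dormant or 2 or 3 of the dormant seeds (0.39 to 0.45, adjusted p = 0.0516 to 0.0868). CCA1 lost its call without any array except replicate 3 of the dormant seeds (0.91 to 1.22, adjusted p = 0.07 to 0.196) and with cyclic loess (adjusted p = 0.0621). NAC053 lost it without any array except replicate 2 of the dormant seeds (0.47 to 0.72, adjusted p = 0.0504 to 0.226), with array weights, quantile normalization and cyclic loess (adjusted p = 0.0767, 0.0766 and 0.0784). RVE8 and STZ each lost it without any of 3 arrays, among them replicate 3 of the non-dormant and 1 of the dormant seeds for both (RVE8 -0.72 to -0.68, adjusted p = 0.0643 to 0.0699, and also without replicate 2 of the dormant seeds; STZ -0.85 to -0.75, adjusted p = 0.057 to 0.0811, and also without replicate 2 of the non-dormant seeds). ERF4 lost it without replicate 3 of the non-dormant or 2 or 3 of the dormant seeds (-0.62 to -0.58, adjusted p = 0.0763 to 0.122). With the 6 arrays alone NIR1 (adjusted p = 0.0682), NIA1 (0.286), CCA1 (0.0776), RVE2 (0.0733), RVE8 (0.139), STZ (0.0778), ERF4 (0.169) and NAC053 (0.214) did not pass.

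Calls among genes of growth and reserve use at 6 h stand beside 3.11% of all probe sets called higher and 2.82% lower. Of 18 lipid mobilisation genes the peroxisomal citrate synthase gene CSY2 was higher (1.13 ± 0.24, adjusted p = 0.00191) and AIM1, of beta-oxidation, lower (-0.51 ± 0.14), while the glyoxylate cycle genes ICL and MLS stood at 0.07 and -0.02. None of 21 cytosolic ribosomal protein genes was called, though 18 had a positive difference (median 0.21, range -0.16 to 0.55). All 10 nucleolar assembly genes were positive (median 0.36), and 1, SWA1, was called (0.72 ± 0.21, adjusted p = 0.0327). With total RNA arrays only 4 were called, with the trended robust fit, the dim filter and the replicate block over total RNA arrays 3 each, and without single arrays none. Among 16 genes for DNA replication and the cell cycle, the G1 cyclin gene CYCD2;1 was called higher, at 6.25, 6.75 and 6.77 in non-dormant seeds, against 5.14, 5.88 and 5.38 in dormant seeds (1.12 ± 0.23, adjusted p = 0.00131). None of 11 photosynthesis and chlorophyll genes was called. With cyclic loess 17 ribosomal and 9 nucleolar genes were positive, and without replicate 3 of the dormant seeds 15 ribosomal genes were (median 0.09). SWA1 did not pass without any of the 6 arrays (0.65 to 0.79, adjusted p = 0.0516 to 0.111) or with quantile or loess normalization (adjusted p = 0.0666 and 0.0521), nor AIM1 without replicate 3 of the non-dormant or 1 or 2 of the dormant seeds (-0.47 to -0.41, adjusted p = 0.0838 to 0.115). With the 6 arrays alone CSY2, AIM1, SWA1 and CYCD2;1 did not pass (adjusted p = 0.185, 0.3, 0.116 and 0.0922).

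Markers of seed tissues were set beside these differences. None of 8 endosperm markers was called, but their summed level (log2 of the summed linear values) was 10.75 to 11.01 on non-dormant and 11.19 to 11.46 on dormant arrays, ranges that do not overlap. The sum is mostly that of EPR1 (AT2G27380), which averaged 10.87 on non-dormant and 11.27 on dormant arrays (-0.40 ± 0.14, adjusted p = 0.0975), since 5 of the 8 were open to background in both groups. None of 12 seed coat markers was called, with summed levels of 9.67 to 9.76 on non-dormant and 9.76 to 9.91 on dormant arrays. None of 6 embryo axis markers was called, with 8.25 to 8.41 and 8.03 to 8.32. The part of tissue composition in the differences was not tested.

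The same contrast was measured at 6 h in polysomal RNA, the transcripts bound by ribosomes, and in total RNA of seeds treated with cordycepin. Of the 865 probe sets higher in total RNA in water, 834 (96.4%) had a positive difference in polysomal RNA and 816 (94.3%) with cordycepin. Of the 786 lower ones 690 (87.8%) and 723 (92%) had a negative difference. In polysomal RNA 1249 probe sets were called (4.49%), with 2.3% of all probe sets higher and 2.19% lower. These shared 360 of the higher calls (41.6% of the 865 and 56.2% of its own) and 392 of the lower ones (49.9% of the 786 and 64.4% of its own). With cordycepin 1343 were called (4.83%, with 2.45% of all probe sets higher and 2.38% lower), and 370 of the higher calls (42.8% and 54.3%) and 360 of the lower calls (45.8% and 54.4%) were shared. None of the 865 was called lower in either, and 1 of the 786 was called higher in each. Median differences of the 865 were 0.88 in total RNA in water, 0.58 in polysomal RNA and 0.60 with cordycepin, and those of the 786 were -0.94, -0.69 and -0.64. The first value of each set comes from the arrays whose difference chose these probe sets, and the others do not. Calls in all of these comparisons used the same spread per probe set, estimated over all 45 arrays. A shared call therefore does not rest on a separate estimate of spread. In polysomal RNA 832 were called without dormant replicate 1. With cordycepin the count was 790 without dormant replicate 1, and 803, 884 and 756 without non-dormant replicates 1, 2 and 3.

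All 15 of the largest rises were called higher in both of those comparisons. NTL8 rose by 5.37 in polysomal RNA and by 3.43 with cordycepin, and GA20OX3 by 2.67 and 1.29. Of the 15 largest falls 14 were called lower in polysomal RNA and 13 with cordycepin. Interaction tests asked whether the difference in total RNA in water departed from the others, and their values are the first difference minus the second. Against polysomal RNA 1 of 27827 probe sets was called (0.00359%, 1486 at an unadjusted p under 0.05), AT5G35120, at -2.44 ± 0.42 (adjusted p = 0.0426). In total RNA in water its means, 1.78 (non-dormant) and 2.73 (dormant), are both open to background. Against cordycepin 6 were called (0.0216%, 1721 unadjusted), 2 of them positive (0.00719%) and 4 negative (0.0144%). They were SDH3-1 (-4.08 ± 0.72), GRP18 (-1.73 ± 0.31) and, not called in water, EXO70H3 (1.75 ± 0.33), PAP21 (1.59 ± 0.27), AT1G63410 (-1.71 ± 0.33) and AT5G55131 (-2.49 ± 0.47). AT5G35120 and the last 4 of these were named after their values were seen. In total RNA in water EXO70H3 (2.83 non-dormant, 2.15 dormant), AT1G63410 (2.23, 2.86) and AT5G55131 (2.2, 2.74) had both means open to background. The glycine-rich protein gene GRP18 read 1.76, 1.90 and 1.93 in non-dormant seeds, against 3.11, 3.15 and 3.45 in dormant seeds, a dim range in which its means with cordycepin were 2.72 and 2.36. Leaving out single arrays gave 0 to 2 calls against polysomal RNA. Against cordycepin it gave 0 to 15, with 0 when replicate 3 of either group in water was left out and 15 without dormant replicate 2 in water, and with only the compared arrays fitted neither test called any.

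**Figure D4:**
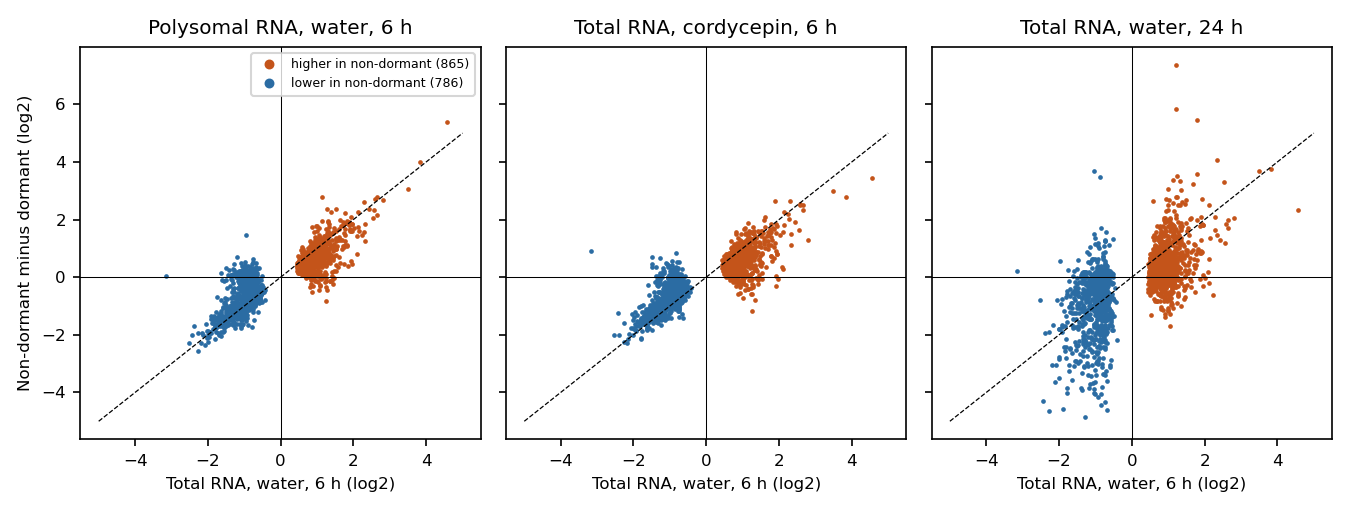
Difference between non-dormant and dormant seeds in 3 comparisons with other arrays (y axes, log2) against that in total RNA after 6 h in water (x axis, log2), for the 865 probe sets called higher (orange) and the 786 called lower (blue) after 6 h in water, with a dashed line of equality. Most points keep their sign in polysomal RNA and with cordycepin but lie nearer 0 than the line (medians 0.58 and 0.60 against 0.88 for the higher set, and -0.69 and -0.64 against -0.94 for the lower set), with SDH3-1 apart at the left (0.03 and 0.91), and spread far from it at 24 h.

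At 24 h in water the contrast had grown, with 5638 probe sets called (20.3%). Of the 865 probe sets higher at 6 h, 386 (44.6%) were also called higher and 41 were called lower at 24 h. Of the 786 lower ones, 414 (52.7%) were also called lower and 25 were called higher. In the 4 comparisons together 123 probe sets were called higher and 242 lower, and 220 higher and 241 lower ones were called at 6 h in water in total RNA alone. A missing call elsewhere is not a tested difference. The interaction tests at 6 h called 1 probe set against polysomal RNA and 6 against cordycepin. The interaction of dormancy with time, the difference at 6 h minus that at 24 h, was called for 2595 probe sets (9.33%, with 4.31% positive and 5.01% negative), 479 of them among the 1651. Of the 865 higher ones 220 (25.4%) had it, 190 with a larger rise at 6 h and 30 with a larger rise at 24 h. Of the 786 lower ones 259 (33%) had it, 106 with the deeper difference at 6 h and 153 with the deeper one at 24 h.

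The gene lists are set side by side at both times, with 11.6% of all probe sets called higher and 8.71% called lower at 24 h. Of 14 LEA genes 5 were called lower at 6 h and all 14 at 24 h (median -1.09). Of 14 storage and oil body genes none was called at 6 h and all were lower at 24 h (median -1.88). Of 16 heat shock genes 10 were called lower and none higher at 24 h (median -1.97). Of 11 expansin genes 7 were called higher at 24 h (median 2.48), as were 10 of 16 xyloglucan and mannan enzyme genes (median 1.93) and 6 of 7 indole glucosinolate genes (median 2.26). Of the 29 tryptophan and auxin synthesis genes 9 were called higher and 4 lower at 24 h. A difference between times of a list as such was not tested.

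NTL8 was among the genes whose rise was larger at 6 h. At 24 h it read 7.16, 7.49 and 7.0 in non-dormant seeds, against 4.38, 5.37 and 4.93 in dormant seeds, so the dormant level was close to that at 6 h and the difference was 2.32 ± 0.25 (interaction 2.24 ± 0.35, adjusted p = 1.85e-05). SRO5 had no call at 24 h, with 6.08, 5.53 and 5.15 in non-dormant seeds, against 6.61, 5.74 and 5.0 in dormant seeds (interaction 2.33 ± 0.45, adjusted p = 0.000408). PYL4 differed by 1.28 ± 0.18 at 24 h, with a dormant mean of 7.33 at that time (interaction 1.15 ± 0.25). CYP707A2 was higher at 6 h and lower at 24 h, at 6.16, 6.16 and 6.05 in non-dormant seeds, against 6.54, 6.58 and 6.88 in dormant seeds at 24 h (-0.54 ± 0.15, adjusted p = 0.0067, interaction 1.34 ± 0.21). The nitrate reductase gene NIA1 was higher at 6 h and lower at 24 h as well (-0.50 ± 0.12, interaction 0.94 ± 0.17), and NIR1 was not called at 24 h (-0.25 ± 0.13, interaction 1.09 ± 0.18).

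Other genes called at 6 h differed far more at 24 h. The carboxypeptidase-like gene scpl44 read 4.51, 4.14 and 4.71 in non-dormant seeds, against 3.04, 3.26 and 3.41 in dormant seeds at 6 h (1.22 ± 0.34, adjusted p = 0.027), and 10.85, 10.73 and 10.78 against 3.77, 2.98 and 3.51 at 24 h (interaction -6.15 ± 0.49). Its relative scpl20 read 9.42, 9.35 and 9.43 in non-dormant seeds, against 2.86, 3.82 and 4.02 in dormant seeds at 24 h (interaction -4.61 ± 0.40). The ferritin gene FER1 was lower at 6 h (-0.88 ± 0.19) and higher at 24 h (3.46 ± 0.19), an interaction of -4.33 ± 0.27. TSA1 went the same way, at 8.04, 7.96 and 8.06 in non-dormant seeds, against 6.62, 6.88 and 6.71 in dormant seeds at 24 h (1.28 ± 0.19, interaction -2.03 ± 0.26). The LEA gene ATECP31, -0.67 at 6 h, read 6.44, 7.47 and 7.20 in non-dormant seeds, against 11.65, 11.61 and 11.67 in dormant seeds at 24 h (interaction 3.94 ± 0.29). GA3OX1, EXPA3 and EXPA1 rose further (interactions -1.56 ± 0.35, -1.69 and -2.02), while EXPA10 kept its difference (3.75 ± 0.31 at 24 h, interaction 0.08 ± 0.44, adjusted p = 0.949). At 6 h scpl44 did not pass without any of 4 arrays, replicates 1 and 3 of the non-dormant and 1 and 2 of the dormant seeds (1.09 to 1.23, adjusted p = 0.057 to 0.119), and scpl20 (1.22 ± 0.28) without replicate 3 of the dormant seeds (0.99, adjusted p = 0.0558). The dormant mean of scpl20 at 6 h, 2.48, is open to background. TSA1 lost its call at 6 h without replicate 3 of the non-dormant seeds (-0.54, adjusted p = 0.13). With the 6 compared arrays alone scpl20 (adjusted p = 0.0877), FER1 (0.0748) and ATECP31 (0.138) did not pass at 6 h.

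**Figure D5:**
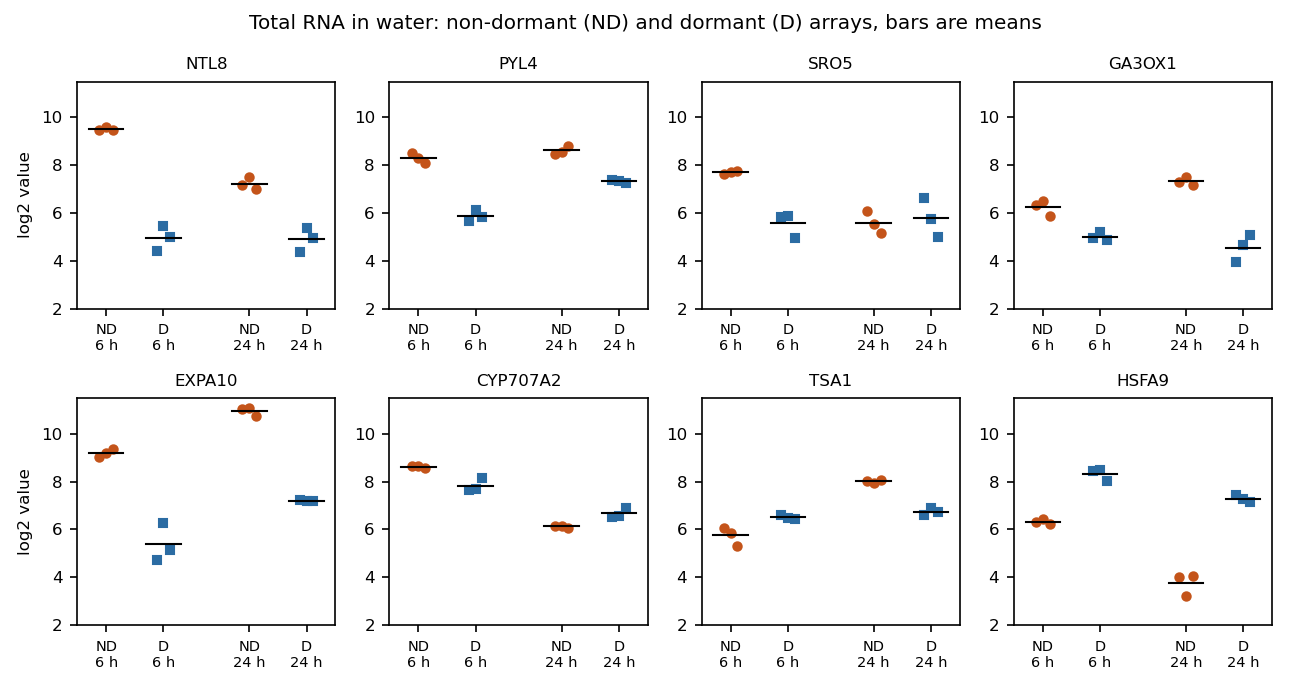
The log2 value of each total RNA array (y axis) at 6 h and 24 h in water for 8 genes, with non-dormant arrays as orange circles, dormant arrays as blue squares and bars at group means. NTL8 stands apart at both times, more so at 6 h (differences of 4.56 at 6 h and 2.32 at 24 h), and SRO5 at 6 h only. GA3OX1 and HSFA9 stand apart more at 24 h (interactions -1.56 and 1.5), and EXPA10 alike at both times. CYP707A2 and TSA1 change sides between 6 h and 24 h.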

How the data were processed

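The values analysed are the log2 expression values the authors deposited in 1 table of 45 arrays, made from biotin-labelled RNA and summarised with RMA, per the submitters' processing notes; array type, probe definition and RMA version are not stated there. Groups and replicate numbers came from the array titles. The array's number of replicates limits the precision. All 45 arrays were fitted in limma 3.58.1 (lmFit and eBayes, R 4.3.3) with 16 group means (29 residual degrees of freedom), no covariate and no filter, and p-values were adjusted by Benjamini-Hochberg over 27827 probe sets. Adjusted p-values in the text are from this fit or a named alternative. Symbols came from RefSeq's TAIR10.1 table, in which 27241 locus codes matched and 10556 had a symbol. The named genes are the 15 largest rises and 15 largest falls with a symbol and without overlap, 4 and 4 loci without one, up to 4 called members of each list with others that describe a pathway step, DOG1, and up to 4 genes for each interaction. Members and lists were chosen with earlier results of these data known. Same-numbered replicates of the compared groups deviated together little (r = 0.004, 0.049 and 0.061), so they were not paired. On simulated data the fit recovered 6.06% of 66 genes changed by 0.5 log2 units, 46.3% of 67 changed by 1 and 97.0% of 67 changed by 2, with 8 false calls. A planned search for promoter motifs was not run and no sequence is printed. Alternatives were other sets of arrays, array weights, a trended robust fit, quantile and cyclic loess normalization, a filter on dim probe sets, the replicate block and leaving out each array. The values of 1 listed gene are left out of the text.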

Additional observations from a re-analysis of the deposited data

Results flagged for a closer look

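Each result here is one whose difference between non-dormant and dormant seeds after 6 h in water departed from that in another comparison by limma's interaction test (adjusted p under 0.05 over all probe sets, 3 arrays in each of 4 groups), given as the difference at 6 h in water minus the other. Against cordycepin at 6 h the values were -4.08 for SDH3-1 (adjusted p = 0.0281) and -1.73 for GRP18 (adjusted p = 0.0296), both with non-dormant levels in water that are open to background. These 2 probe sets also differed from 24 h, by -3.39 and -1.16.

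Against 24 h, genes higher at 6 h and with a larger rise there were NTL8 (2.24), MAPKKK20 (0.94), CP1 (AT5G49480, 1.39), PYL4 (1.15), SRO5 (2.33), AT4G36010 (2.86), RGL2 (1.18), CYP707A2 (1.34), ABI1 (0.83), ABI4 (0.72), AT5G51440 (1.38), MAN5 (0.95), PIL5 (0.90), NIR1 (1.09), NIA1 (0.94) and CYCD2;1 (1.1). Genes higher at 6 h with a larger rise at 24 h were CP1 (AT4G36880, -1.72), GA3OX1 (-1.56), EXP3 (-1.69), EXPA1 (-2.02), scpl44 (-6.15) and scpl20 (-4.61).

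Genes lower at 6 h with a deeper difference at 24 h were GASA2 (1.51), GolS2 (0.84), HSFA9 (1.5), HIPP27 (0.99), AT5G66430 (1.86), AT2G19320 (2.36), NCED5 (0.99), ABA1 (1.06), HAI2 (1.08), LTI65 (1.13), ATECP31 (3.94), LEA14 (2.51), AT4G18680 (1.15), STZ (1.11), RVE2 (1.14) and RVE8 (1.12). Genes lower at 6 h and less so, or higher, at 24 h were BRG3 (-1.16), AT2G25625 (-1.73), XTH28 (-1.32), TSA1 (-2.03) and FER1 (-4.33). Adjusted p-values of the time interactions of these named genes ran up to 0.0416 (HIPP27).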

How the results depend on the processing

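None of the 91 named calls changed direction under the alternatives run, though higher calls did not outnumber lower ones in all of them. With the compared arrays fitted alone the calls fell to 313 in total RNA in water at 6 h, 443 in polysomal RNA, 221 with cordycepin and 0 for the interactions with RNA type and with treatment, a fit with fewer samples behind each spread, while the counts at 24 h (5710) and for the interaction with time (2183) stayed within 1.5 times. It kept 52 of the 91 named calls. Quantile normalization gave 732 higher and 813 lower calls in the comparison at 6 h in water, and cyclic loess 688 and 842. Array weights kept 87 of the 91 named calls, quantile normalization 87, cyclic loess 88, the trended robust fit 91, and the dim filter the 89 it left in.

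Leaving out single arrays gave 1044 to 1499 calls at 6 h in water, 832 to 1005 in polysomal RNA, 756 to 1279 with cordycepin, 4488 to 4864 at 24 h, 0 to 2 for the interaction with RNA type, 0 to 15 with treatment and 2096 to 2559 with time. Of the 91 named calls 64 held without each array. With the replicate number as a block, though the numbers share little deviation, the calls were 1982 at 6 h in water (2000 with total RNA arrays only), 1509 in polysomal RNA, 1608 with cordycepin and 6062 at 24 h, and all 91 named calls held. DOG1, also named, was not called in any of these settings. Levels under 2.87 limit 183 of the 786 lower calls, and for 86 of the 786 both group means lie under that level.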
